A study of Mus musculus with 6 samples.

Results

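The genes of DNA replication and of the G1/S transition were followed in RNA-seq of muscle progenitors from mdx mice. All 43 genes of this group were found by symbol among the 47069 genes of the deposited count table, and all 43 were among the 14165 genes with enough counts to be tested. The cells, described in the labels as muscle stem cells or satellite cells and by the study as myoblasts, carried the mdx mutation in every library, so that dystrophin is missing in both groups and no wild-type group was compared here. They were isolated by FACS, with antibodies against Itga7 and Itgb1 and removal of cells positive for Sca-1, CD45, CD31 or CD11b, and kept in a growth medium with fetal bovine serum and FGF2. The 3 vehicle libraries (DMSO in buffer) were compared with 3 libraries of cells given 10 μM PSB-KD107, a synthetic agonist of the receptor Gpr18, for 2 days per the sample records or overnight per the study's methods. The comparison asks how the agonist acts on the transcriptome of these cells. Libraries are numbered 1, 2 and 4 in each group after the columns of the table, and values of a group are given below in that order.

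A eukaryotic cell copies its DNA once per division. In G1 the origin recognition complex, Cdc6 and Cdt1 load the MCM2-7 ring onto origins. At the G1/S transition, cyclin E and its kinase release E2F transcription factors from the retinoblastoma protein, and E2F drives many of the genes listed here. The ring is then switched on by Cdc45 and the GINS complex. Polymerases copy the DNA with the help of a sliding clamp, and enzymes of deoxynucleotide supply feed the fork. Myoblasts divide as progenitors and leave the cell cycle when they differentiate, and replication genes are known to fall silent at that step.

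E2F sites are a shared feature of many promoters in this group, so promoter sequence is shown first. RefSeq promoter entries (GRCm38.p6), each covering 250 bases before to 50 bases after a start site, were matched for 35 of the 43 genes, in 41 entries. The letters TTTCCCGC, TTTGGCGC, TTTCGCGC or TTTGCCGC, read on both strands, stood in 15 of these 41 entries (36.6%), compared with 2.26% of all 32851 entries. CCAAT was found in 56.1% against 37.4%, the GC box GGGCGG in 73.2% against 35.7%, and the CHR letters TTTGAA or TTCGAA in 17.1% against 19.2%. In 9 genes an E2F-like match lay wholly before the start site. The 5 of these whose 60-base window held no GENCODE exon are printed below in the direction of the gene, with E2F-like letters in capitals.
Cdc6, chr11:98907987-98908046, plus strand: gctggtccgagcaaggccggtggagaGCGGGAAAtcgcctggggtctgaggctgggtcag
Mcm5, chr8:75109330-75109389, plus strand: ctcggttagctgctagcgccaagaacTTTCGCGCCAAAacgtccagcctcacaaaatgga
Uhrf1, chr17:56304102-56304161, plus strand: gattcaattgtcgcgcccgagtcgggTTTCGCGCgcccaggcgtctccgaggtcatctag
Pola1, chrX:93632260-93632319, minus strand: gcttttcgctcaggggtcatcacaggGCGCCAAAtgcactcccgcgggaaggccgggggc
Mcm6, chr1:128359782-128359841, minus strand: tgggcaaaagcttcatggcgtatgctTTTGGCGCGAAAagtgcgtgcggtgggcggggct
In the Mcm5 and Mcm6 windows matches on both strands overlap. The Cdc6 and Uhrf1 windows lie in an intron of the longer GENCODE gene models, and the other 3 lie outside genes. A match of letters describes the window and does not show that a factor was bound.

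The libraries held between 30917613 and 48756794 counts, and 3 counts correspond to between 0.0596 and 0.0962 CPM (read counts relative to the library total, scaled by TMM factors), a floor that covers counting error only. Of the myoblast markers, Pax7 ranged from 26.8 to 68.8 CPM and Myod1 from 399 to 1060 CPM. The differentiation factor Myog stood at 1175 to 2203 CPM and the myosin gene Myh3 was far higher still, so that genes of differentiating myocytes were abundant in every library. Among 9 fibroblast markers, Col3a1 was counted at 63.0 to 395 CPM while Pdgfra was at most 1.46 CPM and Lum was at 0. The summed level of the 4 fibroblast markers that could be tested was 153 to 398 CPM in the vehicle libraries and 64.6 to 326 CPM in the PSB-KD107 libraries. The endothelial markers Kdr and Emcn and the leukocyte markers Adgre1 and Tyrobp were at or near 0, and the summed level of the 2 tested markers of each type ranged from 1.36 to 8.51 CPM for endothelial cells and from 0.605 to 6.48 CPM for leukocytes. The part of other cells in the results below was not tested.

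Replication genes were expressed at low to moderate levels. Per length of exon (RPKM, CPM per kilobase, mean of the vehicle libraries), the highest were E2f2 at 20.4, Pcna at 15.6, Gins4 at 11.2, Rrm1 at 10.85, Rrm2 at 8.44 and Ccne1 at 7.58 RPKM. The lowest were Orc1 at 0.181, Mcm10 at 0.221 and Cdc6 at 0.293 RPKM. Subunits of the MCM2-7 ring ranged from 1.57 RPKM for Mcm5 and 1.76 for Mcm3 to 4.83 for Mcm7 and 5.31 for Mcm2. The vehicle libraries spread widely in these genes: the median SD of log2 CPM between vehicle libraries was 0.59 over the 43 genes and 0.21 over all genes tested, and between PSB-KD107 libraries it was 0.44 and 0.28.

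Most of the spread between vehicle libraries came from vehicle library 1, which stood apart from vehicle libraries 2 and 4. Vehicle library 1 was the highest of all 6 for 32 of the 43 genes (background 17.2% of the genes tested) and the lowest for 0, and it was the highest vehicle library for 37 of them (background 44.2%). Over all genes tested, log2 CPM of vehicle library 1 correlated less with vehicle libraries 2 and 4 (0.966 and 0.953) than these did with each other (0.992). Its distance from them was thus not limited to replication genes. Vehicle library 1 correlated best with PSB-KD107 library 1 (0.981), which was the highest PSB-KD107 library for 25 of the 43 genes (background 30.1%). PSB-KD107 library 4 correlated at 0.929 to 0.948 with the other libraries. In 21 of the 43 genes vehicle library 1 was at least 2 times the mean of vehicle libraries 2 and 4, after an offset of 0.1 CPM, compared with 9.09% of the genes tested. The median log2 ratio was 0.99, and over all genes tested 0.00. The median level of the 43 genes, as log2 CPM minus the mean of each gene over the 6 libraries, was 0.67, -0.12 and -0.34 in the vehicle libraries and 0.13, -0.29 and 0.02 in the PSB-KD107 libraries. The groups overlapped in this level, with vehicle library 1 above every other library; vehicle library 4 and PSB-KD107 library 2 were lowest, and changed places on a log2(CPM + 1) scale (-0.26 and -0.27). The 3 libraries with the highest levels (vehicle 1, PSB-KD107 1 and PSB-KD107 4) were also the 3 deepest, with at least 37350460 counts, and the part of depth was not tested. In bulk RNA, a change in the share of cycling cells and a change of RNA per cell cannot be told apart.

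**Figure D1:**
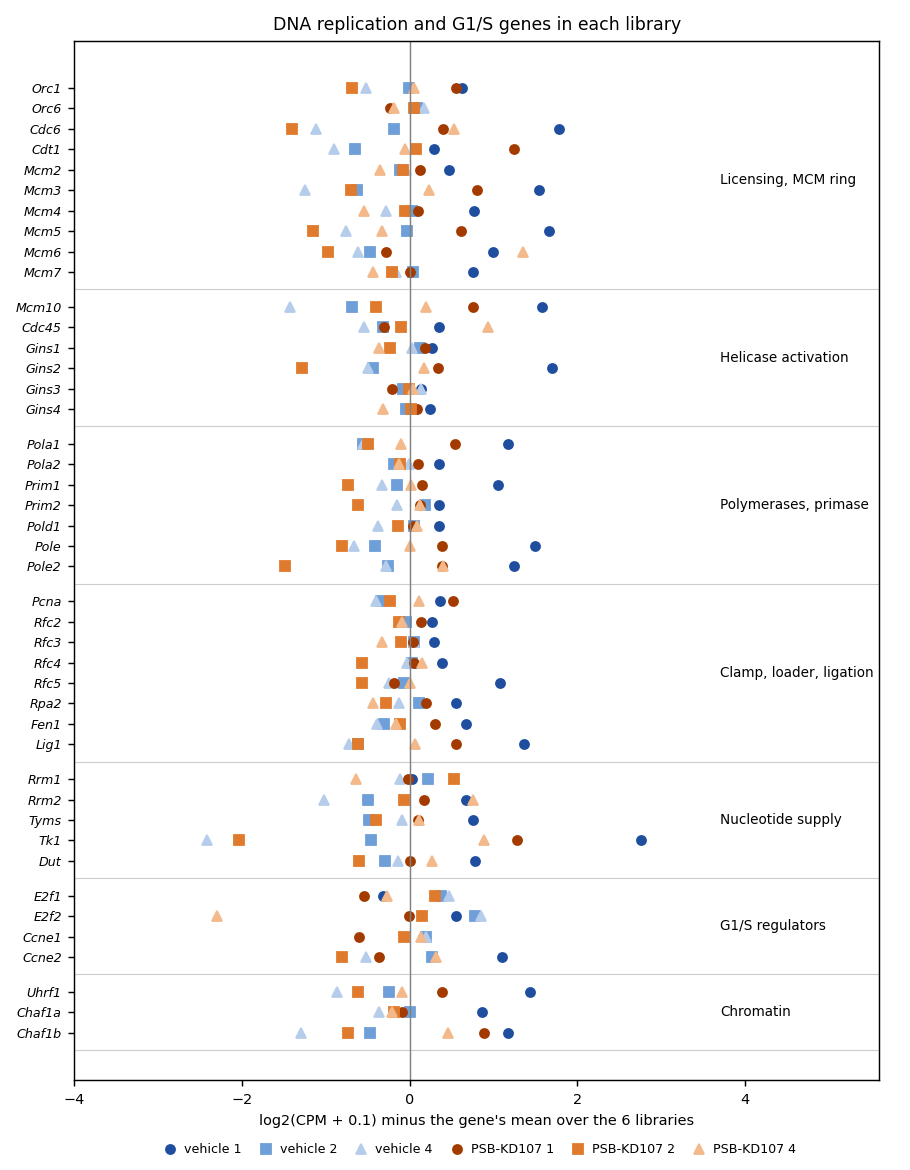
Level of each of the 43 genes in the 6 libraries, as log2(CPM + 0.1) minus the mean of the gene over the libraries, grouped by role; blue symbols are vehicle and orange symbols PSB-KD107 libraries. Vehicle library 1 (dark blue circle) is the rightmost symbol for 32 of 43 genes, while in E2f1, E2f2 and Ccne1 it is not.

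The size of this difference varied along the pathway. It was largest for Tk1 (chromosome 11, 117815526 to 117826092), the thymidine kinase that salvages thymidine in S phase, with 8.01, 0.773 and 0.124 CPM in the vehicle libraries and 2.82, 0.193 and 2.12 CPM in the PSB-KD107 libraries. Vehicle library 1 was 17.9 times the mean of the other vehicle libraries, but vehicle library 4 held only 4 counts and PSB-KD107 library 2 only 6 counts of this gene. Mcm10 followed at 6.89 times, Cdc6 at 5.82, Mcm3 at 5.65 and Gins2 at 4.87. Genes that did not share it were E2f1 at 0.597 times, E2f2 at 0.834, Ccne1 at 0.977, Rrm1 at 0.980 and Orc6 at 0.998 times the mean of vehicle libraries 2 and 4. The median log2 ratio was 1.95 for the chromatin genes, 1.29 for polymerases and primase, 1.03 for nucleotide supply, 0.97 for licensing, 0.64 for the clamp group, 0.51 for helicase activation and -0.15 for the G1/S regulators. Genes with an E2F-like match in a promoter entry had a median of 1.52 over 15 genes, those with an entry but no match 0.88 over 20 genes, and both ranges overlapped (-0.26 to 2.45 and -0.74 to 3.89). The promoters printed above belong to genes with ratios between 2.91 and 5.82 times. Orc1, Mcm7, Rfc3 and Gins3, whose matches before the start site were not printed, had lower ratios of 2, 1.77, 1.18 and 1.07 times. Tk1, with the largest ratio, had no match.

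**Figure D2:**
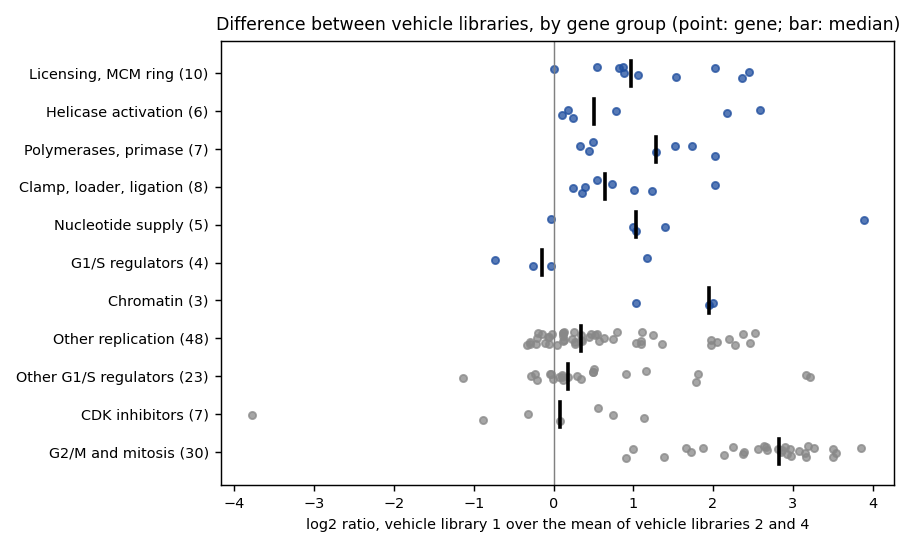
Log2 ratio of vehicle library 1 to the mean of vehicle libraries 2 and 4 (offset 0.1 CPM) for each gene, by role group of the 43 genes (blue) and by other cell-cycle lists (grey), with the number of genes and a bar at the median. The median is 0.99 over the 43 genes and 2.83 over the 30 G2/M genes, and the G1/S regulators have a median of -0.15.

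Against this spread, PSB-KD107 gave no call among replication genes. By the quasi-likelihood test of edgeR, with p-values adjusted for the whole table, 0 of the 43 genes passed an adjusted p of 0.05, as did 0 of all genes (background 0%). With DESeq2 the count was also 0 of 43, while 3.4% of all genes passed. At an unadjusted p under 0.05 edgeR gave 0 of 43 genes (background 9.4%) and DESeq2 gave 1 (2.33%, compared with 11.7% of all genes). The smallest adjusted p from edgeR was 0.623. The fitted log2 fold change was below 0 for 37 genes (86.0%, background 50.1%), with a median of -0.25, a range from -1.11 to 0.89 and a median SE of 0.38. All 3 PSB-KD107 libraries lay below all 3 vehicle libraries in 4 genes (background 6.59%), Orc6, Rfc3, E2f2 and Ccne1, and above them in 0 (background 9.2%).

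Without vehicle library 1 the direction of the group was lost. The fitted log2 fold change was then below 0 for 18 of 43 genes (41.9%, background 47.8%), the median was 0.14, and edgeR again called 0 genes. At an unadjusted p under 0.05 it gave 3 genes of 43 (6.98%, compared with 11.8% of all genes), namely Cdt1, Mcm10 and Rrm2. Their log2 fold changes were 1.34, 1.40 and 1.06, with edgeR adjusted p-values of 0.415, 0.415 and 0.408. In this fit, which does not pair libraries, the lower median of the group thus rested on vehicle library 1. The library closest to it, PSB-KD107 library 1, was kept. Between libraries of the same number, the median log2 ratio of PSB-KD107 to vehicle was -0.64, -0.20 and 0.35 for numbers 1, 2 and 4. PSB-KD107 was higher in 2, 14 and 29 of the 43 genes.

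**Figure D3:**
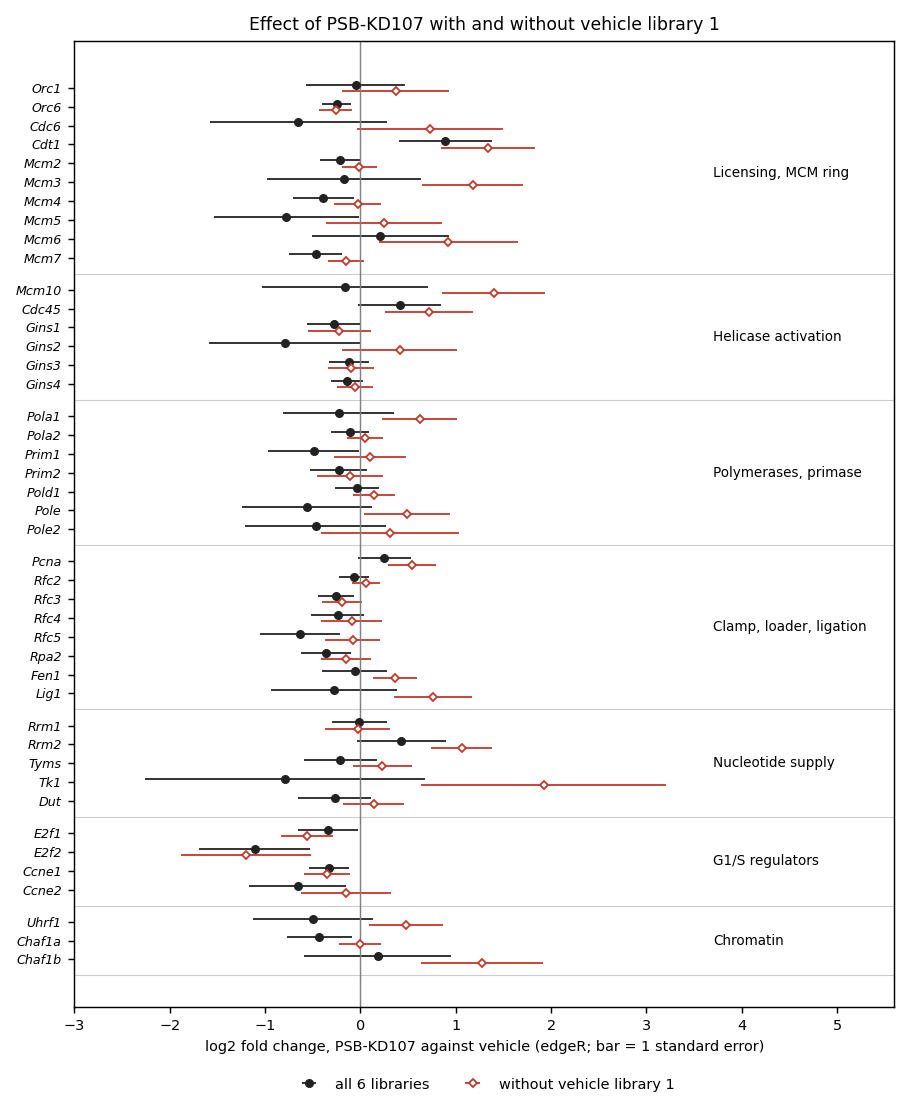
Fitted log2 fold change of PSB-KD107 against vehicle for the 43 genes, with all 6 libraries (black) and without vehicle library 1 (red, open); bars are 1 standard error from edgeR. With all libraries 37 genes lie left of 0, and without vehicle library 1 only 18 do; E2f2, Ccne1, E2f1 and Orc6 stay left in both.

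Of the origin licensing genes, Orc1, Orc6, Cdc6, Mcm2, Mcm3, Mcm4, Mcm5 and Mcm7 had log2 fold changes below 0, and Cdt1 and Mcm6 above 0 (median -0.23). Orc6, a subunit of the origin recognition complex, was counted at 13.0, 12.7 and 13.4 CPM with vehicle and 10.1, 12.3 and 10.4 CPM with PSB-KD107. Its groups did not overlap, yet PSB-KD107 library 2 came close to the lowest vehicle library. The log2 fold change was -0.25 ± 0.15 (SE, n = 3 per group; edgeR adjusted p = 0.657). Cdc6, the ATPase that helps load the MCM ring, had 3.42, 0.802 and 0.372 CPM with vehicle and 1.25, 0.289 and 1.38 CPM with PSB-KD107. Vehicle library 1 was its highest and PSB-KD107 library 2 its lowest library, and the log2 fold change of -0.65 ± 0.93 turned to 0.73 without vehicle library 1.

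Cdt1 (chromosome 8, 122568015 to 122573554), the partner of Cdc6 in loading, gave the largest value above 0. It stood at 8.01, 4.12 and 3.44 CPM with vehicle and 15.6, 6.90 and 6.27 CPM with PSB-KD107. PSB-KD107 library 1 was above every vehicle library, while the other PSB-KD107 libraries lay between the vehicle libraries, and the log2 fold change was 0.89 ± 0.49 (edgeR adjusted p = 0.638), or 0.32 without PSB-KD107 library 1. Mcm2, a ring subunit, had 46.9, 31.1 and 32.9 CPM with vehicle and 37.0, 32.0 and 26.6 CPM with PSB-KD107, overlapping groups with a log2 fold change of -0.21 ± 0.21, or -0.01 without vehicle library 1. Mcm5, another ring subunit, had 12.7, 3.84 and 2.26 CPM with vehicle and 6.06, 1.70 and 3.11 CPM with PSB-KD107. The log2 fold change of Mcm5 was -0.78 ± 0.76, or 0.25 without vehicle library 1, its highest library. Mcm6 differed from the other ring subunits in PSB-KD107 library 4, where it reached 31.5 CPM, against 24.5, 8.85 and 8.003 CPM with vehicle and 10.1 and 6.19 CPM in the other PSB-KD107 libraries.

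Genes that activate the helicase had a median log2 fold change of -0.15, with Mcm10, Gins1, Gins2, Gins3 and Gins4 below 0 and Cdc45 above. Gins1, a GINS subunit, was counted at 1.58, 1.43 and 1.33 CPM with vehicle and 1.49, 1.09 and 0.990 CPM with PSB-KD107 (log2 fold change -0.28 ± 0.28). Gins2, its partner, had 4.49, 0.945 and 0.900 CPM with vehicle and 1.69, 0.481 and 1.49 CPM with PSB-KD107 (-0.79 ± 0.80, and 0.41 without vehicle library 1). Both overlapped between groups, but vehicle library 1 stood far apart in Gins2 only; 2758 exonic bases of Gins2 are shared with Gse1 on the opposite strand, so that its counts are less certain. Cdc45, which joins the ring and GINS into the active helicase, was like Mcm6 highest in PSB-KD107 library 4, at 8.56 CPM against 3.01 to 5.69 CPM elsewhere.

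All polymerase and primase genes (Pola1, Pola2, Prim1, Prim2, Pold1, Pole and Pole2) had log2 fold changes below 0, with a median of -0.23. Prim1, the catalytic primase subunit, had 5.33, 2.26 and 1.99 CPM with vehicle and 2.80, 1.48 and 2.56 CPM with PSB-KD107 (-0.49 ± 0.48). Pole, the catalytic subunit of the leading-strand polymerase, had 7.65, 1.98 and 1.64 CPM with vehicle and 3.497, 1.48 and 2.67 CPM with PSB-KD107 (-0.56 ± 0.68). In both genes vehicle library 1 was highest and PSB-KD107 library 2 lowest, and without vehicle library 1 the values were 0.10 and 0.49. Over the 7 genes the median became 0.14 and 6 of them were above 0.

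In the clamp group, Rfc2, Rfc3, Rfc4, Rfc5, Rpa2, Fen1 and Lig1 had values below 0 and Pcna above 0 (median log2 fold change -0.25). Pcna, the sliding clamp (chromosome 2, 132249162 to 132253314), was counted at 51.1, 31.3 and 30.03 CPM with vehicle and 57.2, 33.8 and 42.9 CPM with PSB-KD107. Each group had its highest value in library 1, and the groups overlapped (0.25 ± 0.28, edgeR adjusted p = 0.809). Leaving out 1 library moved this value between 0.02, without PSB-KD107 library 1, and 0.54, without vehicle library 1. Reads of Pcna can be split with its pseudogenes Pcna-ps1 and Pcna-ps2. The clamp loader subunit Rfc3 stood at 8.14, 6.90 and 6.89 CPM with vehicle and 6.84, 6.16 and 5.26 CPM with PSB-KD107, without overlap but with PSB-KD107 library 1 next to the lowest vehicle library (-0.26 ± 0.19). Rfc5, another loader subunit, had 8.19, 3.67 and 3.23 CPM with vehicle and 3.36, 2.57 and 3.85 CPM with PSB-KD107 (-0.63 ± 0.42). Here vehicle library 1 alone was above all PSB-KD107 libraries, and without it the value was -0.08.

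Enzymes of deoxynucleotide supply had a median log2 fold change of -0.21, with Rrm1, Tyms, Tk1 and Dut below 0 and Rrm2 above. Rrm2, the small subunit of ribonucleotide reductase, which is made in S phase (chromosome 12, 24708241 to 24714146), had 40.0, 17.8 and 12.4 CPM with vehicle and 28.2, 24.0 and 42.4 CPM with PSB-KD107. Its 2 highest libraries were PSB-KD107 4 and vehicle 1, from different groups (0.43 ± 0.47). Leaving out 1 library moved this value between 0.12, without vehicle library 4, and 1.06, without vehicle library 1, with 0.16 without PSB-KD107 library 4. Rrm1, the large subunit, did not share that pattern: it had 117.9, 134 and 106 CPM with vehicle and 114, 167 and 74.3 CPM with PSB-KD107. Tyms, which makes thymidylate, had 6.79, 2.81 and 3.72 CPM with vehicle and 4.27, 2.98 and 4.29 CPM with PSB-KD107 (-0.21 ± 0.38). Dut, the dUTPase that keeps uracil out of DNA, had 11.2, 5.27 and 5.83 CPM with vehicle and 6.50, 4.202 and 7.76 CPM with PSB-KD107 (-0.27 ± 0.38). For Tyms and Dut every PSB-KD107 library lay below vehicle library 1. In Tyms all of them were above vehicle library 2, in Dut they lay on either side of vehicle libraries 2 and 4, and values without vehicle library 1 were 0.23 and 0.14.

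The G1/S regulators E2f1, E2f2, Ccne1 and Ccne2 all had log2 fold changes below 0, with a median of -0.50, and with all of them still below 0 without vehicle library 1 (median -0.45). E2f2 (chromosome 4, 136172394 to 136196057), an activator E2F, was counted at 87.9, 103 and 108 CPM with vehicle and 59.7, 66.4 and 12.1 CPM with PSB-KD107. All PSB-KD107 libraries lay below all vehicle libraries, and PSB-KD107 library 4 was far below the other 2. The means were 99.6 ± 10.5 and 46.1 ± 29.6 CPM (SD, n = 3 per group), and the log2 fold change was -1.11 ± 0.58 (edgeR adjusted p = 0.623). An exact two-sided permutation test gave p = 0.1, the smallest value that 3 against 3 libraries allow, and without PSB-KD107 library 4 the log2 fold change was -0.66.

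Ccne1, encoding a cyclin E, was steady with vehicle at 19.9, 20.3 and 20.4 CPM and had 11.7, 16.97 and 19.5 CPM with PSB-KD107. The groups did not overlap, although PSB-KD107 library 4 was close to the lowest vehicle library (-0.33 ± 0.21, edgeR adjusted p = 0.677). E2f1 had 13.0, 21.1 and 22.5 CPM with vehicle and 11.1, 20.1 and 13.5 CPM with PSB-KD107 (-0.34 ± 0.31). In E2f1 vehicle library 1 was the lowest vehicle library, whereas it was the highest in 37 of the 43 genes. Ccne2, the other cyclin E gene, had 6.02, 3.35 and 1.89 CPM with vehicle and 2.13, 1.54 and 3.47 CPM with PSB-KD107, with vehicle library 1 again the highest.

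Genes that restore chromatin behind the fork were Uhrf1 and Chaf1a, with log2 fold changes below 0, and Chaf1b, above 0 (median -0.43). Uhrf1, which guides DNA methylation onto the new strand, had 19.3, 5.96 and 3.85 CPM with vehicle and 9.30, 4.59 and 6.66 CPM with PSB-KD107 (-0.50 ± 0.63). Chaf1a, the large subunit of the histone chaperone CAF-1, had 12.6, 6.93 and 5.30 CPM with vehicle and 6.46, 6.03 and 5.92 CPM with PSB-KD107 (-0.43 ± 0.34). Vehicle library 1 was above all others in both genes, and without it the values were 0.48 and 0.00. In Chaf1a, 4648 exonic bases overlap Ubxn6 on the opposite strand.

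Other genes of the pathway were examined in lists that do not include the 43 genes. Among 48 further genes of DNA replication and S phase, 38 had a log2 fold change below 0 (79.2%, background 50.1%) and 10 above (median -0.20). Without vehicle library 1, 24 were below 0 and 24 above (median -0.01), so in this fit the lower median of the list rested on that library too. Between libraries of the same number, the median log2 ratio was -0.26, -0.16 and 0.01 for numbers 1, 2 and 4. With all libraries edgeR called 0 of the 48, with 2 at an unadjusted p under 0.05 (background 9.4%), and DESeq2 called 1 (background 3.4%). That gene was Asf1b, a histone chaperone, with 7.45, 7.45 and 7.04 CPM with vehicle and 4.49, 5.39 and 4.26 CPM with PSB-KD107 (log2 fold change -0.63 ± 0.19, adjusted p = 0.382 with edgeR and 0.0146 with DESeq2). Its groups were well apart and vehicle library 1 did not stand out, unlike in Chaf1a and Chaf1b. Pold2, a subunit of polymerase delta, had 22.0, 23.1 and 22.7 CPM with vehicle and 27.6, 27.6 and 26.9 CPM with PSB-KD107, all PSB-KD107 libraries being higher (0.28 ± 0.10, edgeR adjusted p = 0.470). Atad5, which unloads the clamp, had 7.65, 8.33 and 9.18 CPM with vehicle and 5.66, 7.38 and 3.99 CPM with PSB-KD107 (-0.56 ± 0.26, no overlap). Gmnn, the inhibitor of Cdt1, had 3.67, 1.89 and 1.09 CPM with vehicle and 2.25, 1.64 and 4.37 CPM with PSB-KD107, so that the groups overlapped.

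Of 23 other G1/S regulators, 13 had a value below 0 (56.5%, background 50.1%) and 10 above. edgeR called 0, and DESeq2 called 3 (background 3.4%). Myc, a growth-promoting transcription factor, had 13.8, 14.2 and 14.2 CPM with vehicle and 23.9, 20.1 and 27.3 CPM with PSB-KD107 (0.76 ± 0.15, adjusted p = 0.228 with edgeR and 0.00114 with DESeq2). Cdk6, a kinase partner of D cyclins, had 7.96, 8.62 and 6.58 CPM with vehicle and 14.9, 12.4 and 12.7 CPM with PSB-KD107 (0.79 ± 0.18, adjusted p = 0.253 and 0.00281). Skp2, which marks Cdkn1b for degradation, had 14.4, 13.7 and 15.9 CPM with vehicle and 9.98, 10.5 and 11.5 CPM with PSB-KD107 (-0.46 ± 0.14, adjusted p = 0.405 and 0.0404). In these 3 genes the groups were apart and the vehicle libraries close together. Ccnd1, cyclin D1, was instead spread within both groups, at 127, 46.5 and 25.7 CPM with vehicle and 144, 35.8 and 20.99 CPM with PSB-KD107.

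The 7 inhibitors of cyclin-dependent kinases had no common direction, with 4 above 0 and 3 below, and edgeR called 0. Cdkn1a was high everywhere, at 2058, 2439 and 2685 CPM with vehicle and 1767, 2383 and 2477 CPM with PSB-KD107. Cdkn1c had 232, 2478 and 3889 CPM with vehicle and 89.4, 1086 and 72.3 CPM with PSB-KD107 (-2.40 ± 1.40, edgeR adjusted p = 0.657), with vehicle library 1 and PSB-KD107 libraries 1 and 4 low. These were the 3 libraries with the highest median level of replication genes. Cdkn2b had 15.4, 10.5 and 7.91 CPM with vehicle and 22.8, 20.2 and 41.3 CPM with PSB-KD107 (1.32 ± 0.37, adjusted p = 0.361 with edgeR and 0.0304 with DESeq2). Its groups did not overlap. Cdkn1b had 93.3, 63.8 and 62.4 CPM with vehicle and 106, 72.2 and 81.9 CPM with PSB-KD107. Cdkn2d had 20.2, 19.6 and 18.6 CPM with vehicle and 20.8, 18.6 and 29.4 CPM with PSB-KD107, and both genes overlapped between groups.

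Mitotic genes varied between libraries as the replication genes did, over a wider range. The median level of 30 G2/M genes was 2.03, -0.32 and -1.46 with vehicle and 0.68, -0.89 and 0.20 with PSB-KD107, on the same log2 scale as above. The 4 highest libraries came in the same order as for the median level of the 43 replication genes. Mki67, a marker of cycling cells, had 41.1, 6.04 and 1.06 CPM with vehicle and 14.1, 2.63 and 13.0 CPM with PSB-KD107. All 30 had a log2 fold change below 0 with all libraries (median -0.62), and 29 of 30 were above 0 without vehicle library 1 (median 1.06); edgeR called 0 in both fits. Ube2c, a ubiquitin-conjugating enzyme of the anaphase-promoting complex, had 20.5, 12.2 and 9.49 CPM with vehicle and 13.4, 7.09 and 7.40 CPM with PSB-KD107 (-0.60 ± 0.39). Kif20a, a kinesin of cell division, had 22.5, 6.62 and 3.47 CPM with vehicle and 8.90, 3.40 and 4.35 CPM with PSB-KD107 (-0.97 ± 0.75). Prc1, which bundles microtubules of the central spindle, had 24.8, 13.4 and 11.3 CPM with vehicle and 12.8, 12.0 and 12.6 CPM with PSB-KD107 (-0.40 ± 0.31). In these 3 genes vehicle library 1 was highest and the groups overlapped.

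**Figure D4:**
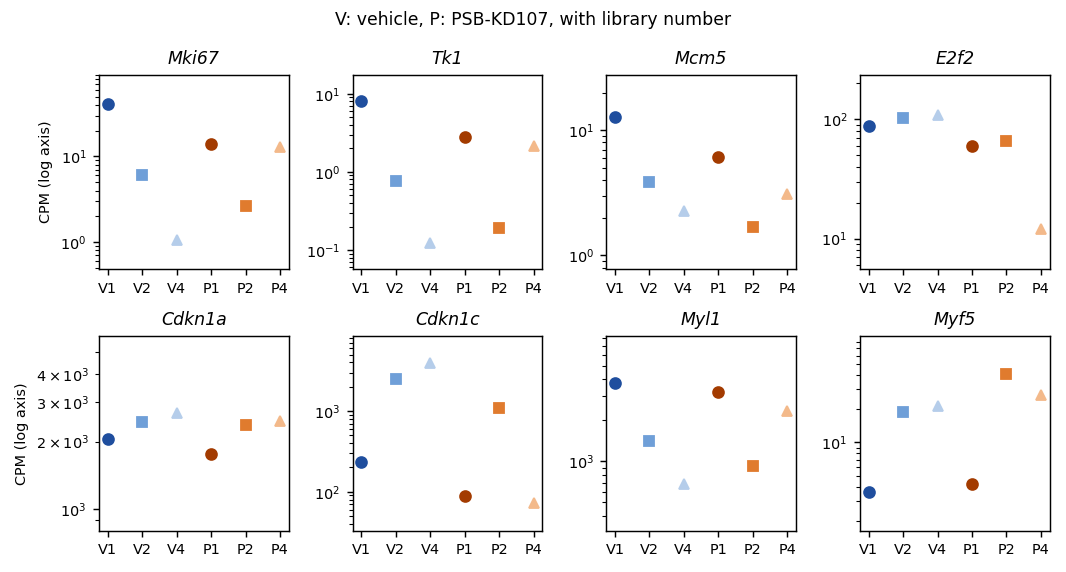
CPM of 8 genes in each library on log axes (V, vehicle; P, PSB-KD107, with the library number). Mki67, Tk1, Mcm5 and Myl1 are highest in vehicle library 1, Cdkn1c and Myf5 are low in libraries 1 of both groups, and E2f2 is lower in every PSB-KD107 library than in any vehicle library.

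The 15 genes of differentiating myocytes had median levels of 0.38, 0.00 and 0.01 with vehicle and -0.14, -0.31 and -0.04 with PSB-KD107, so that vehicle library 1 was also the highest for this list. Of the 15, 9 had a log2 fold change below 0 (60%, background 50.1%), with a median of -0.22. By edgeR 5 had an unadjusted p under 0.05, all of them below 0. The background was 9.4% over both directions, with 415 of the 14165 genes tested below 0 at that p. Every PSB-KD107 library lay below every vehicle library in 6 (background 6.59%). DESeq2 called 4 (background 3.4%) and edgeR called 0. Without vehicle library 1, 8 were below 0 and 7 above, with a median of -0.03. In that fit 2 had an unadjusted p under 0.05 by edgeR, compared with 11.8% of all genes. Of the 10 myoblast markers, 7 had a log2 fold change below 0 (70%, background 50.1%) and 3 above, or 5 and 5 without vehicle library 1. Their median was -0.08 and their range -0.90 to 0.73. DESeq2 called 1 of them (background 3.4%) and edgeR 0. That gene was Pax7, a marker of satellite cells, with 68.8, 49.9 and 59.99 CPM with vehicle and 34.0, 26.8 and 35.1 CPM with PSB-KD107 (-0.90 ± 0.17, adjusted p = 0.209 with edgeR and 0.000639 with DESeq2), without overlap. Myl1, a myosin light chain, had 3779, 1413 and 683 CPM with vehicle and 3212, 919 and 2331 CPM with PSB-KD107, with the 4 highest libraries in the order of the replication genes. The median level of the 15 genes did not follow that order, with PSB-KD107 library 1 (-0.14) below vehicle libraries 2 (0.00) and 4 (0.01). Myf5, a factor of undifferentiated myoblasts, had 3.57, 18.6 and 21.3 CPM with vehicle and 4.23, 40.9 and 26.8 CPM with PSB-KD107, low in libraries 1 of both groups. Pax7, Myl1 and Myf5 were chosen after their values were seen, and the part of differentiation in the values of the replication genes was not tested.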

How the data were processed

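RNA-seq of mdx muscle progenitors was used, with 3 libraries per group. Per the study's methods, the authors made directional paired-end libraries from polyadenylated RNA, aligned reads to the mouse genome with STAR (mm10 per the submitters' processing notes) and deposited raw counts per gene, without normalization. The counting program, annotation and strand setting are not given in the sources used here, so counts of overlapping genes and near-identical copies are uncertain. The study names cells from 3 different mice, but no label ties a library to a mouse, and p-values measure only the spread between these libraries. Groups came from the treatment labels; the columns numbered 4 name a group but no single sample record.

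The software was R 4.3.3 (packages DESeq2 1.42.0, limma 3.58.1 and edgeR 4.0.16) and Python 3.11.15 (pandas 2.3.3). After filterByExpr with its defaults, libraries were scaled with TMM factors and compared by edgeR's quasi-likelihood test, with Benjamini-Hochberg adjustment over the 14165 genes tested and a threshold of 0.05. A log2 fold change is PSB-KD107 over vehicle, and its SE is the log2 fold change divided by the square root of F. Log2 CPM used a prior count of 2, and ratios between libraries an offset of 0.1 CPM. Lengths and positions came from GENCODE M21 (GRCm38), whose genes held 99.96% of the counts. The tests were tried on simulated data.

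Genes given in every library were the 2 with the smallest p-value in each role group plus Mcm2, Mcm5, Cdc6, Cdt1, Pcna, Rrm2, Tyms, E2f1, Ccne1 and Uhrf1, and from each other list the 3 with the smallest p-value plus Gmnn, Ccnd1, Cdkn1a, Cdkn1b and Mki67. Tk1, Mcm6, Cdc45, Rrm1, Ccne2 and marker genes were added after their values were seen. The 43 genes and all lists were chosen with earlier results of these data known. Alternatives were RLE factors, no filter, a mean FPKM of at least 1, DESeq2, limma-voom, the library number as a block, and each library left out in turn.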

Additional observations from a re-analysis of the deposited data

How the results depend on the processing

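Under RLE factors and limma-voom, every replication gene with a range given below kept its direction and its side of the threshold. The replication genes below 0 were 37 of 43 with RLE factors and 32 of 43 with limma-voom, with median log2 fold changes of -0.26 and -0.21. On all 6 libraries the number of genes called was 0 in the main test, 8 with no filter on low counts and 482 with DESeq2. The replication genes called stayed at 0 in each of these. With a mean FPKM of at least 1, fewer genes were tested and 24 of 29 replication genes were below 0. DESeq2 gave 1 replication gene at an unadjusted p under 0.05. Leaving out each library in turn, this count ranged from 0 to 3, that of all genes from 677 to 1783, the replication genes below 0 from 18 to 39 of 43, and their median log2 fold change from -0.37 to 0.14; the lowest count of genes (677) came without vehicle library 2, a similar one (683) without vehicle library 4, and the 18 and the 0.14 without vehicle library 1. Ranges for single genes were -1.11 to 0.73 for Cdc6, -1.39 to 0.25 for Mcm5, -1.15 to 0.41 for Gins2, -0.74 to 0.10 for Prim1, -0.92 to 0.49 for Pole, -0.46 to 0.23 for Tyms, -0.47 to 0.14 for Dut and -0.88 to 0.48 for Uhrf1, each with its value above 0 without vehicle library 1. The other named replication genes kept their direction or reached 0.00, with ranges of 0.32 to 1.34 for Cdt1, 0.02 to 0.54 for Pcna, 0.12 to 1.06 for Rrm2, -0.35 to -0.21 for Orc6, -0.35 to -0.01 for Mcm2, -0.49 to -0.16 for Gins1, -0.37 to -0.17 for Rfc3, -0.86 to -0.08 for Rfc5, -0.62 to -0.18 for E2f1, -1.47 to -0.66 for E2f2, -0.50 to -0.16 for Ccne1 and -0.67 to 0.00 for Chaf1a. The cause was not tested.

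The library numbers were not used as a block in the main test. Deviations from the group means, correlated across genes, gave 0.63 for the libraries numbered 1, 0.50 for those numbered 2 and -0.13 for those numbered 4. Vehicle library 4 correlated best with PSB-KD107 library 2 (0.64). Libraries numbered 1 and 2 thus went together by number and those numbered 4 did not. Whether a number marks cells of the same mouse cannot be told from this check. Taken by number, the median log2 ratio of the 43 genes was -0.64, -0.20 and 0.35. With a replicate block over all 6 libraries, 2 replication genes (4.65%, compared with 12.2% of all genes) had an unadjusted p under 0.05 and 0 were called. With a replicate block on the libraries numbered 1 and 2, which leaves 1 residual degree of freedom, 2456 genes were called (17.1%) and 4410 had an unadjusted p under 0.05, and 14 replication genes were called (32.6%) with 21 at that p. On these 4 libraries without the block 2 replication genes (4.65%, compared with 6.42% of all genes) had an unadjusted p under 0.05 and 0 were called. In both fits on these 4 libraries 40 of the 43 genes were below 0 (93.0%). The median log2 fold change was -0.40 with the block and -0.45 without it. Of the named replication genes, 10 were called with that block, with Cdt1 above 0 among them (0.87). Rrm2 alone changed direction, at -0.07 with the block and -0.15 without it. Depth limits Tk1, Cdc6, Orc1, Mcm10 and Pole2, with fewer than 15 counts in some libraries.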
